A study of Mus musculus with 27 samples.

Results

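The genes of iron handling and of the hepcidin axis followed here in mouse liver were the hepcidin genes Hamp and Hamp2, the transferrin receptors Tfrc and Tfr2, the iron carrier Trf, the ferritin subunits Fth1 and Ftl1, the iron exporter Slc40a1, the ligand Bmp6 and the membrane protein Hfe. They were chosen by symbol, and each symbol matched 1 Ensembl gene, so 10 of the 55414 genes of the count table are described and all 10 passed the filter on low counts. The livers came from 8-week-old female Balb/c mice, and 1 polyadenylated RNA library was made per liver homogenate, 27 in all. The controls (n = 4) received olive oil intraperitoneally and saline through the tail vein. The other groups without carbon tetrachloride received oil together with 4-methylumbelliferone (4MU, n = 3), with a luciferase siRNA in lipid nanoparticles (siLuc-LNP, n = 3) or with a Has2 siRNA in the same particles (siHAS2-LNP, n = 3). Carbon tetrachloride, a hepatotoxin that injures hepatocytes and drives fibrosis, was given alone (CCl4, n = 2) or with 4MU (CCl4 + 4MU, n = 4), siLuc-LNP (CCl4 + siLuc-LNP, n = 4) or siHAS2-LNP (CCl4 + siHAS2-LNP, n = 4). 4MU, an inhibitor of hyaluronan synthesis, was gavaged daily at 600 mg/kg, the siRNAs were injected at 1 mg/kg and then at 0.5 mg/kg, and treatment lasted 2 weeks. The paper's methods add that 4MU was mixed with carboxymethyl cellulose and that control mice were gavaged with this vehicle. The luciferase siRNA has no target in the mouse and is the particle control.

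The liver sets the body's iron supply through hepcidin, a peptide hormone that hepatocytes secrete and that makes cells withdraw the iron exporter ferroportin from their surface. Hepcidin transcription follows BMP6, which sinusoidal endothelial cells release when iron is plentiful and which signals through BMP receptors and SMAD proteins, with HFE and transferrin receptor 2 as hepatocyte sensors of iron-loaded transferrin. Inflammatory cytokines raise hepcidin through STAT3, and erythropoietic demand lowers it. Inside cells, iron regulatory proteins bind hairpins called iron-responsive elements, which protect the Tfrc message in its 3′ untranslated region and block translation of the ferritin and ferroportin messages from the 5′ untranslated region.

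The libraries held between 7044386 and 29425937 assigned read pairs, with a median of 22109517, and mouse 4 of CCl4 + siHAS2-LNP was the shallowest. A count of 0 therefore allowed up to 3 counts for counting error only, or 0.102 to 0.426 per 1000000 of a library's total counts. Levels below are counts per 1000000 after scaling between libraries (CPM), so they are not on exactly the scale of this floor. The 7 hepatocyte markers examined were present in every library and summed to between 76491 CPM in a CCl4 mouse and 202588 CPM in a control. Has2, the target of the siRNA, had 0 counts in 25 of the 27 libraries, 2 counts in 1 CCl4 mouse and 1 count in 1 CCl4 + siLuc-LNP mouse, so a change in it was not detectable at this depth. Each mouse is a separate animal in the labels, and no litter, day or batch is given.

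Averaged over the 4 arms, livers given CCl4 held less hepcidin and ferroportin message and more Bmp6 and transferrin receptor 1 message, though only Hamp2 and Slc40a1 passed in each arm. Of the 10 genes, 8 passed the quasi-likelihood test of edgeR at a Benjamini-Hochberg adjusted p under 0.05 over the 14114 genes tested, 3 of them higher and 5 lower, in a comparison that called 51.9% of all tested genes. Hamp2 fell by 3.79 on the log2 scale and Hamp by 2.03, whereas Bmp6 rose by 1.22 and Tfrc by 1.06. Trf rose by 0.39, and Slc40a1, Ftl1 and Tfr2 fell by 0.80, 0.47 and 0.36. Fth1 and Hfe did not pass, with log2 differences of 0.12 ± 0.0995 (SE, adjusted p = 0.329) and -0.08 ± 0.0856 (adjusted p = 0.463). The median log2 difference of the 10 genes was -0.22, against -0.02 for all genes tested. Over the same contrast all 7 markers of infiltrating monocytes and macrophages and 6 of 7 of stellate cells and myofibroblasts were higher. In bulk liver, fewer cells of one type and less RNA per cell cannot be told apart.

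**Figure D1:**
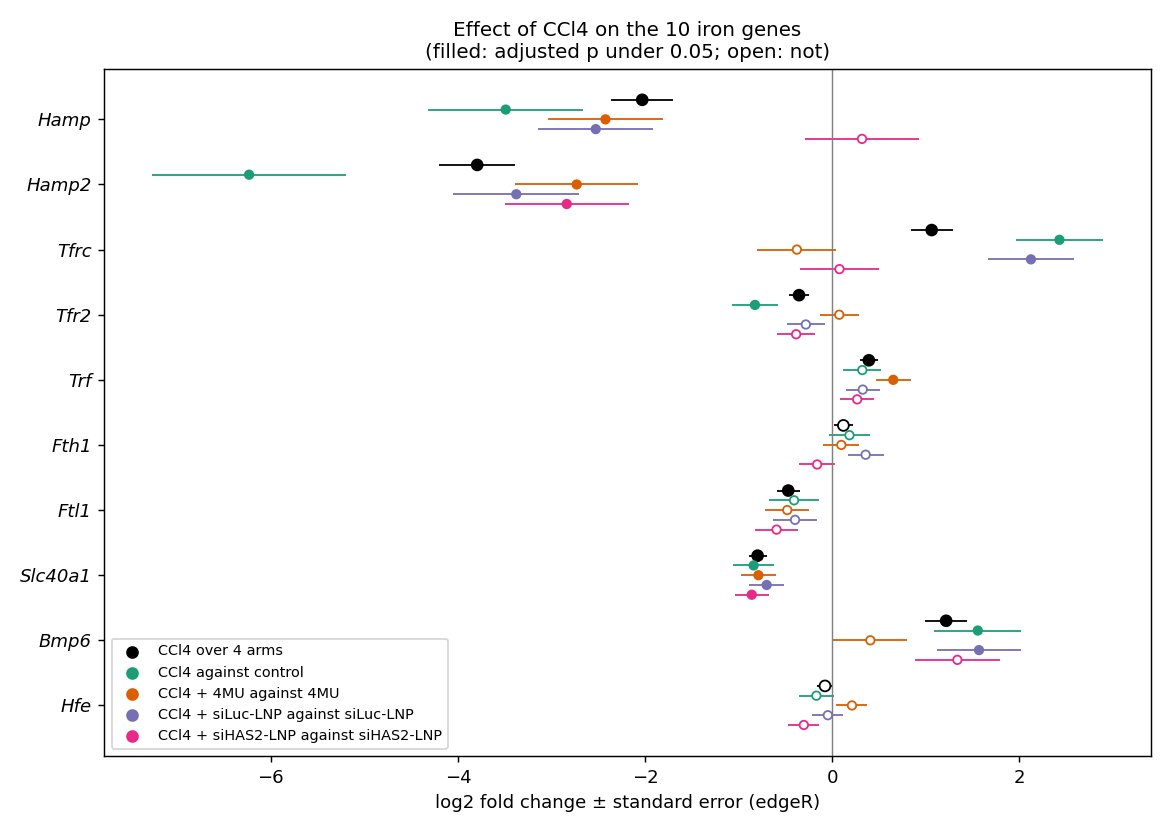
Effect of CCl4 on the 10 iron genes, as log2 fold change (horizontal axis) with its standard error from edgeR, for the mean over 4 arms and for each arm against its own group without CCl4; filled points passed at an adjusted p under 0.05. Hamp2 and Slc40a1 lie left of 0 and are filled in all 4 arms, while Hamp lies near 0 in the siHAS2-LNP arm and Tfrc near 0 in the 4MU and siHAS2-LNP arms.

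Within single arms the same test called 6 of the 10 genes in CCl4 against control (34.0% of all genes), 4 in CCl4 + 4MU against 4MU (23.7%), 5 in CCl4 + siLuc-LNP against siLuc-LNP (24.2%) and 2 in CCl4 + siHAS2-LNP against siHAS2-LNP (12.8%), the last a share close to that of all genes. Hamp2 and Slc40a1 were lower in each of the 4 arms. Hamp passed in 3 arms, Tfrc and Bmp6 in 2, and Tfr2 and Trf in 1 each. The groups of each arm were not shared with another arm, so these are 4 separate comparisons of 2 to 4 mice a group within 1 fit.

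The hepcidin genes lie head to tail on the minus strand of chromosome 7 (GRCm39), Hamp (ENSMUSG00000050440) at chr7:30641766-30643990 and Hamp2 (ENSMUSG00000056978) at chr7:30621797-30624106, with 17659 bases between them. Both come from a duplication in the mouse, and only the Hamp peptide is known to lower blood iron.

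Hamp stood at 413, 597, 413 and 563 CPM in the 4 controls and at 34.0 and 54.4 CPM in the 2 CCl4 mice. In the 4MU arm it was 460, 900 and 917 CPM without CCl4 and 129, 172, 166 and 100 CPM with it. In the siLuc-LNP arm it was 1195, 1051 and 425 CPM without CCl4 and 91.4, 120, 344 and 62.3 CPM with it. Every mouse of these 3 CCl4 groups lay below every mouse of its own comparison group. The log2 fold changes were -3.49 ± 0.83 for CCl4 against control (SE, edgeR adjusted p = 0.00225), -2.42 ± 0.614 in the 4MU arm (adjusted p = 0.00564) and -2.53 ± 0.616 in the siLuc-LNP arm (adjusted p = 0.00404). In the siHAS2-LNP arm Hamp was low already without CCl4. The edgeR test called that level neither against siLuc-LNP (adjusted p = 0.0755) nor against control. Hamp was 36.9, 94.7 and 154 CPM in the siHAS2-LNP mice without CCl4, all below the other 10 mice without CCl4, and 319, 65.9, 58.2 and 29.2 CPM in the CCl4 + siHAS2-LNP mice. Those groups overlapped, with a log2 difference of 0.32 ± 0.610 (adjusted p = 0.785), which turned to -0.89 without CCl4 + siHAS2-LNP mouse 1, to -0.07 without siHAS2-LNP mouse 1 and to -0.32 under limma-voom, none of them past the threshold.

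Ordered by group mean, Hamp ran from 890.5 ± 409.6 CPM (SD, n = 3) in siLuc-LNP through 759 ± 259 in 4MU (n = 3) and 496 ± 97.4 in controls (n = 4) to 155 ± 129 in CCl4 + siLuc-LNP, 142 ± 33.6 in CCl4 + 4MU and 118 ± 135 in CCl4 + siHAS2-LNP (n = 4 each), and to 95.1 ± 58.5 in siHAS2-LNP (n = 3) and 44.2 ± 14.4 in CCl4 (n = 2). Neighbours in that order overlapped except at 1 place, between the lowest control at 413 CPM and the highest CCl4 + siLuc-LNP mouse at 344 CPM.

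**Figure D2:**
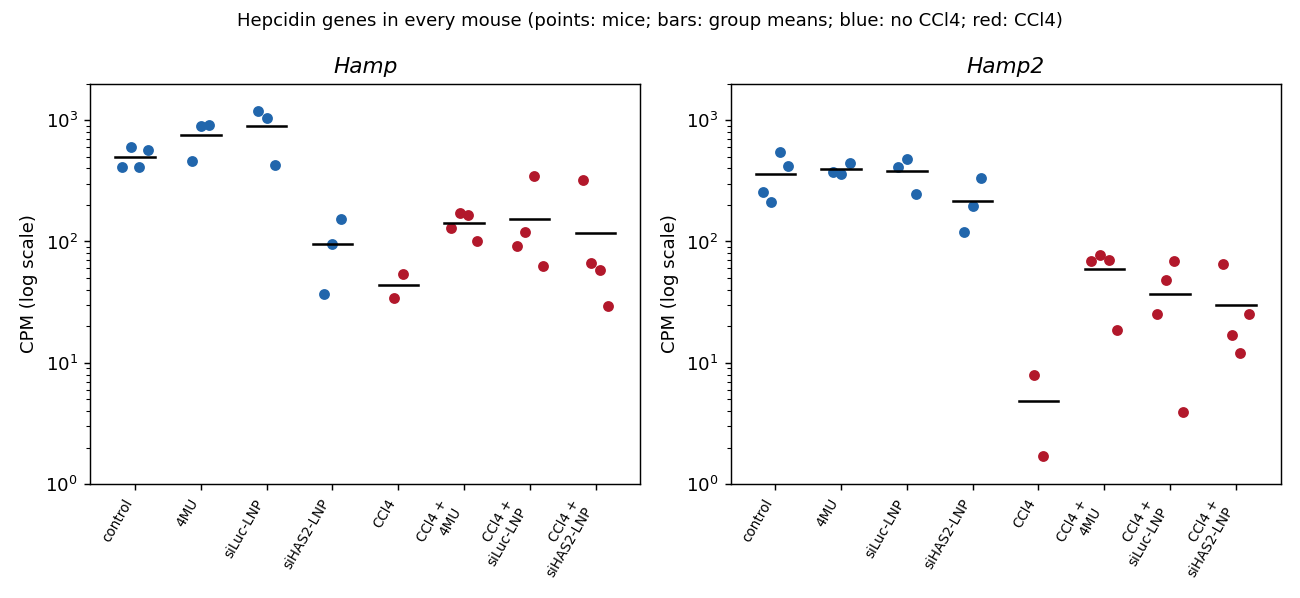
Hamp and Hamp2 in each of the 27 mice, in CPM on a log axis; points are mice, bars are group means, blue marks groups without CCl4 and red those with it. All 14 red points of Hamp2 lie below all 13 blue ones, while the blue Hamp points of siHAS2-LNP lie among the red ones.

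Hamp2 separated the mice by CCl4. It was 256, 210, 546 and 415 CPM in controls, 377, 359 and 442 CPM in 4MU, 413, 478 and 245 CPM in siLuc-LNP and 119, 196 and 331 CPM in siHAS2-LNP. With CCl4 it was 7.93 and 1.70 CPM in CCl4 alone and 69.2, 77.9, 70.8 and 18.7 CPM in CCl4 + 4MU. It was 25.1, 48.5, 68.8 and 3.95 CPM in CCl4 + siLuc-LNP and 65.8, 17, 12 and 25.2 CPM in CCl4 + siHAS2-LNP. Each of the 14 CCl4 mice was below each of the other 13, with medians of 25.2 and 359 CPM. The log2 fold changes by arm were -6.23 ± 1.04 (CCl4 against control, edgeR adjusted p = 6.14e-05), -2.73 ± 0.657 (4MU, adjusted p = 0.00385), -3.38 ± 0.673 (siLuc-LNP, adjusted p = 0.000681) and -2.84 ± 0.663 (siHAS2-LNP, adjusted p = 0.0055). In the order of group means, neighbours overlapped except between siHAS2-LNP (lowest mouse 119 CPM) and CCl4 + 4MU (highest mouse 77.9 CPM), and between CCl4 + siHAS2-LNP (lowest 12 CPM) and CCl4 (highest 7.93 CPM). Of the possible 85-base stretches of its main transcript, 17.3% also occurred in Gm44662 on the opposite strand, against 0.5% for Hamp, so part of the Hamp2 count depends on how such reads were assigned.

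The share of Hamp2 among the summed Hamp and Hamp2 counts of a library therefore moved between groups. It was 26.0% to 57.0% in controls, 28.5% to 45.0% in 4MU and 25.7% to 36.5% in siLuc-LNP. In siHAS2-LNP it was 67.4% to 76.4% (70.7% ± 4.95, SD, n = 3), above every other mouse of the study. In CCl4 alone it was 18.9% and 3.02%, below all 13 mice without CCl4. The other CCl4 groups spanned 15.7% to 35.0% with 4MU, 5.96% to 28.7% with siLuc-LNP and 17.1% to 46.3% with siHAS2-LNP, overlapping the controls. These shares are given as values and were not tested.

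**Figure D3:**
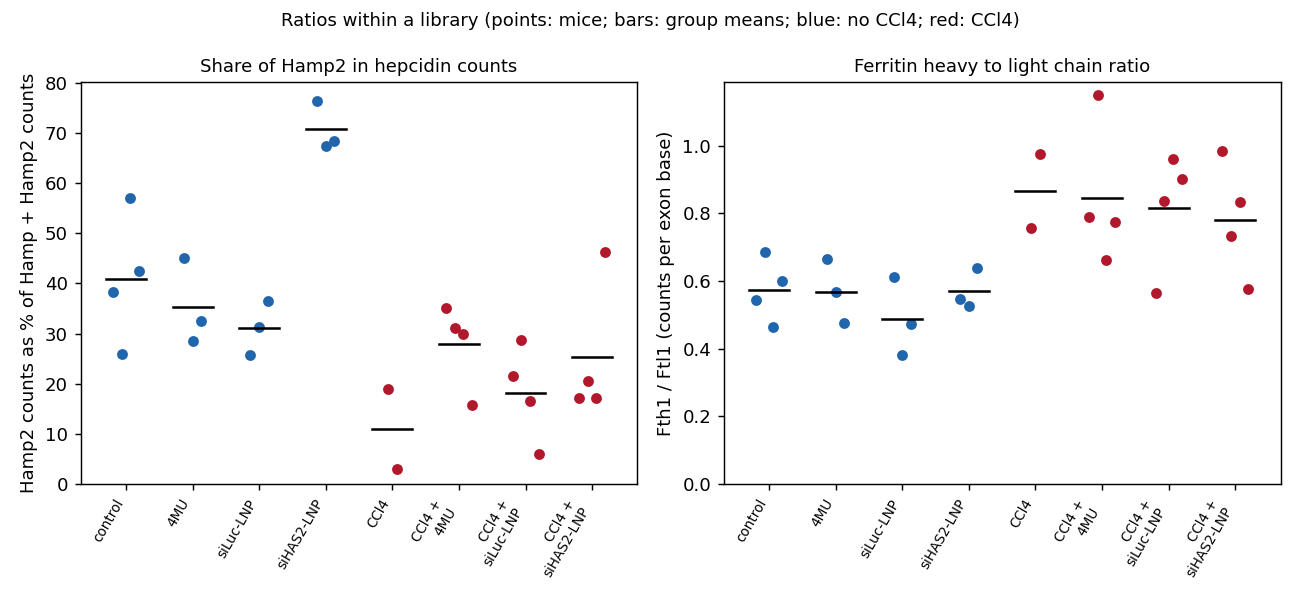
Left, Hamp2 counts as a percentage of Hamp plus Hamp2 counts; right, the ratio of Fth1 to Ftl1 in counts per exon base; points are mice, bars are group means, blue marks groups without CCl4 and red those with it. The 3 siHAS2-LNP mice hold the highest Hamp2 shares, 67.4% to 76.4%, and the ferritin ratio runs from 0.381 to 0.686 without CCl4 and from 0.564 to 1.15 with it.

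Upstream of hepcidin, the ligand gene Bmp6 (ENSMUSG00000039004, chr13:38529065-38684280) was higher with CCl4. Of the 85-base stretches of its main transcript, 3.99% also occurred in Txndc5, which overlaps on the opposite strand. Part of the Bmp6 count thus depends on how such reads were assigned. Bmp6 was the lowest of the 10 genes at 0.172 to 3.36 CPM, with as few as 3 counts in a library. It was 0.865, 0.177, 0.598 and 0.777 CPM in controls and 2.14 and 1.51 CPM in CCl4, 1.68, 2.01, 2.34 and 1.04 CPM in CCl4 + siLuc-LNP against 0.172, 0.627 and 0.923 CPM in siLuc-LNP, and 1.92, 1.22, 1.36 and 1.47 CPM in CCl4 + siHAS2-LNP against 0.727, 0.330 and 0.718 CPM in siHAS2-LNP. In these arms every CCl4 mouse lay above every mouse without it. The log2 differences were 1.55 ± 0.465 (CCl4 against control, edgeR adjusted p = 0.012), 1.57 ± 0.448 (siLuc-LNP arm, adjusted p = 0.0125) and 1.34 ± 0.453 (siHAS2-LNP arm, adjusted p = 0.0521). The last passed under DESeq2 (adjusted p = 0.0233) and limma-voom (adjusted p = 0.0239) and in 5 of 13 alternatives in all. In the 4MU arm the values were 1.28, 1.68 and 2.23 CPM without CCl4 and 2.02, 2.14, 3.36 and 1.64 CPM with it, and the groups overlapped (0.41 ± 0.397, adjusted p = 0.489). The call in CCl4 against control was lost without CCl4 mouse 1 (1.30, adjusted p = 0.093), and that of the siLuc-LNP arm without siLuc-LNP mouse 1 (1.16, adjusted p = 0.0801). Markers of the sinusoidal endothelium, a source of BMP6, moved as well over the 4 arms, 5 of 7 higher and 1 lower, where 51.9% of all genes were called. Their summed level was 85.6 to 144 CPM in controls, 99.6 to 164 in 4MU, 63.1 to 118 in siLuc-LNP, 58.2 to 103 in siHAS2-LNP, 124 and 139 in CCl4, 99.0 to 171 in CCl4 + 4MU, 120 to 136 in CCl4 + siLuc-LNP and 73.7 to 98.9 in CCl4 + siHAS2-LNP, with none at 0. Their part in the Bmp6 result was not tested.

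The hepatocyte iron sensors changed less. Tfr2 (ENSMUSG00000029716, chr5:137568087-137586343) was 532, 492, 408 and 467 CPM in controls and 319 and 216 CPM in CCl4, without overlap (-0.83 ± 0.243, edgeR adjusted p = 0.0109). Without CCl4 mouse 2 that difference was -0.55 and did not pass (adjusted p = 0.237). The other arms gave 0.07 ± 0.207 for 4MU, -0.28 ± 0.206 for siLuc-LNP and -0.39 ± 0.206 for siHAS2-LNP, with adjusted p of 0.834, 0.338 and 0.232, and in the siHAS2-LNP arm the groups did not overlap. The call over 4 arms was lost when all 14 CCl4 mice were set against the other 13 regardless of arm (-0.27, adjusted p = 0.0809). The 7 hepatocyte markers summed to 76491 and 131495 CPM in the same CCl4 mice, against 162571 to 202588 CPM in controls, and 4 of the 7 were lower in that comparison, which called 34.0% of all genes. Their part in the Tfr2 and hepcidin results was not tested. Hfe (ENSMUSG00000006611, chr13:23886017-23894914) was 28.4 to 50.1 CPM in CCl4 mice and 29.8 to 48.9 CPM in the others.

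Of 15 further genes of BMP and SMAD signalling to hepcidin, 2 were higher and 4 lower with CCl4 over 4 arms, a smaller share than the 51.9% called among all genes, with a median log2 difference of -0.08. Id1, a transcriptional target of SMAD signalling, rose by 0.82 ± 0.236 (adjusted p = 0.00538), Atoh8, a transcription factor that acts on the hepcidin promoter, fell by 0.78 ± 0.181 (adjusted p = 0.000918), and Smad7, a feedback inhibitor, fell by 0.56 ± 0.154 (adjusted p = 0.00395). Id1 and Atoh8 thus moved in opposite directions over the same mice. Id1 was 4.94 to 13.2 CPM in controls and 21.4 and 22.6 CPM in CCl4, whereas Atoh8 was 11.6 to 21.1 CPM in controls and 6.03 and 6.86 CPM in CCl4. Of 9 inflammatory and erythroid signals, 7 were tested, Il6 and Erfe being under the count filter, and 1 was higher and 2 lower (median 0.02), also a smaller share than that of all genes. Inhbb, which encodes a chain of activin B, rose by 2.25 ± 0.387 (adjusted p = 3.28e-05), Cebpa, a hepatocyte transcription factor that activates Hamp, fell by 0.65 ± 0.139 (adjusted p = 0.000372), and Il1b fell by 0.49 ± 0.194 (adjusted p = 0.0357). Inhbb was 0 to 0.254 CPM in controls, 0 to 6 counts, and 2.73 and 4.67 CPM in CCl4, but 0.648 to 0.747 CPM in CCl4 + 4MU and 0.195 to 2.13 CPM in 4MU, where the log2 difference was -0.25 ± 0.679 (adjusted p = 0.828). The interaction of 4MU and CCl4 for Inhbb was -4.53 ± 1.04 (adjusted p = 0.021).

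Transferrin receptor 1, the main port of entry for transferrin-bound iron, is encoded by Tfrc (ENSMUSG00000022797, chr16:32427556-32451612). The search for iron-responsive elements took the letters CNNNNNCAGTG followed by a base other than G and 5 bases that pair with the N's of the upper stem. It found a match in 0.986% of 21593 coding genes, in 0.523% within an untranslated region, and in 4 of the 10 genes. Tfrc held 4 matches, all in the 3′ untranslated region, where its message is known to answer to iron through such elements. The search required this loop and full pairing, so it can miss elements of another form. Capitals mark the bulged C and the CAGTG of the loop, on GRCm39 and on the gene's strand.
Tfrc 1, chr16:32450038-32450064: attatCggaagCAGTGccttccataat
Tfrc 2, chr16:32450417-32450443: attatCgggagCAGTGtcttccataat
Tfrc 3, chr16:32450482-32450508: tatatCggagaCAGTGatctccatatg
Tfrc 4, chr16:32450529-32450555: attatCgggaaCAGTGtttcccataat

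Tfrc was 15.6, 23.2, 21.9 and 28.3 CPM in controls and 119 and 120 CPM in the CCl4 mice, a log2 difference of 2.43 ± 0.465 (edgeR adjusted p = 0.00029). In the siLuc-LNP arm it was 20.7, 13.3 and 13.4 CPM without CCl4 and 56.3, 62.3, 42.5 and 113 CPM with it (2.12 ± 0.46, adjusted p = 0.0015). Neither pair of groups overlapped. In the 4MU arm it was 47.9, 25.1 and 96.4 CPM without CCl4 and 33.8, 46.6, 60.5 and 32.6 CPM with it (-0.38 ± 0.423, adjusted p = 0.552). In the siHAS2-LNP arm it was 132, 27.5 and 42.1 CPM without CCl4 and 48.6, 69.3, 89.9 and 76.0 CPM with it (0.08 ± 0.425, adjusted p = 0.936). Both of these pairs overlapped, and both signs turned when single mice were left out. The mice given CCl4 spanned 32.6 to 120 CPM, and among mice without it 4MU mice 1 and 3 (47.9 and 96.4 CPM) and siHAS2-LNP mouse 3 (42.1 CPM) lay within that range and siHAS2-LNP mouse 1 (132 CPM) above it. Ordered by mean, Tfrc ran from 119.7 CPM in CCl4 through 70.9 ± 17.2 in CCl4 + siHAS2-LNP, 68.6 ± 30.9 in CCl4 + siLuc-LNP, 67.1 ± 56.4 in siHAS2-LNP, 56.5 ± 36.4 in 4MU and 43.4 ± 13 in CCl4 + 4MU to 22.2 ± 5.23 in controls and 15.8 ± 4.21 in siLuc-LNP. Neighbours overlapped except CCl4 with CCl4 + siHAS2-LNP and CCl4 + 4MU with controls.

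Tfrc is also a gene of dividing cells, and all 7 proliferation markers were higher with CCl4 over 4 arms, where 51.9% of all genes were called. Their summed level was 7.91 to 12.6 CPM in controls, 2.56 to 5.51 in 4MU, 13 to 20.8 in siLuc-LNP, 24.7 to 32.9 in siHAS2-LNP, 340 and 651 in CCl4, 51.9 to 229 in CCl4 + 4MU, 184 to 539 in CCl4 + siLuc-LNP and 167 to 199 in CCl4 + siHAS2-LNP. In 4MU mice 1 and 3 a single marker was at 0. All 7 were higher with CCl4 in each of the 4 arms, with median log2 differences of 5.66 in CCl4 against control, 4.91 in the 4MU arm, 4.2 in the siLuc-LNP arm and 2.70 in the siHAS2-LNP arm, beside Tfrc differences of 2.43, -0.38, 2.12 and 0.08. Their part in the Tfrc result was not tested. Per exon base, Tfr2 exceeded Tfrc in every mouse, by 23.5 to 48.7 times in controls and by 2.57 and 3.82 times in the 2 CCl4 mice.

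**Figure D4:**
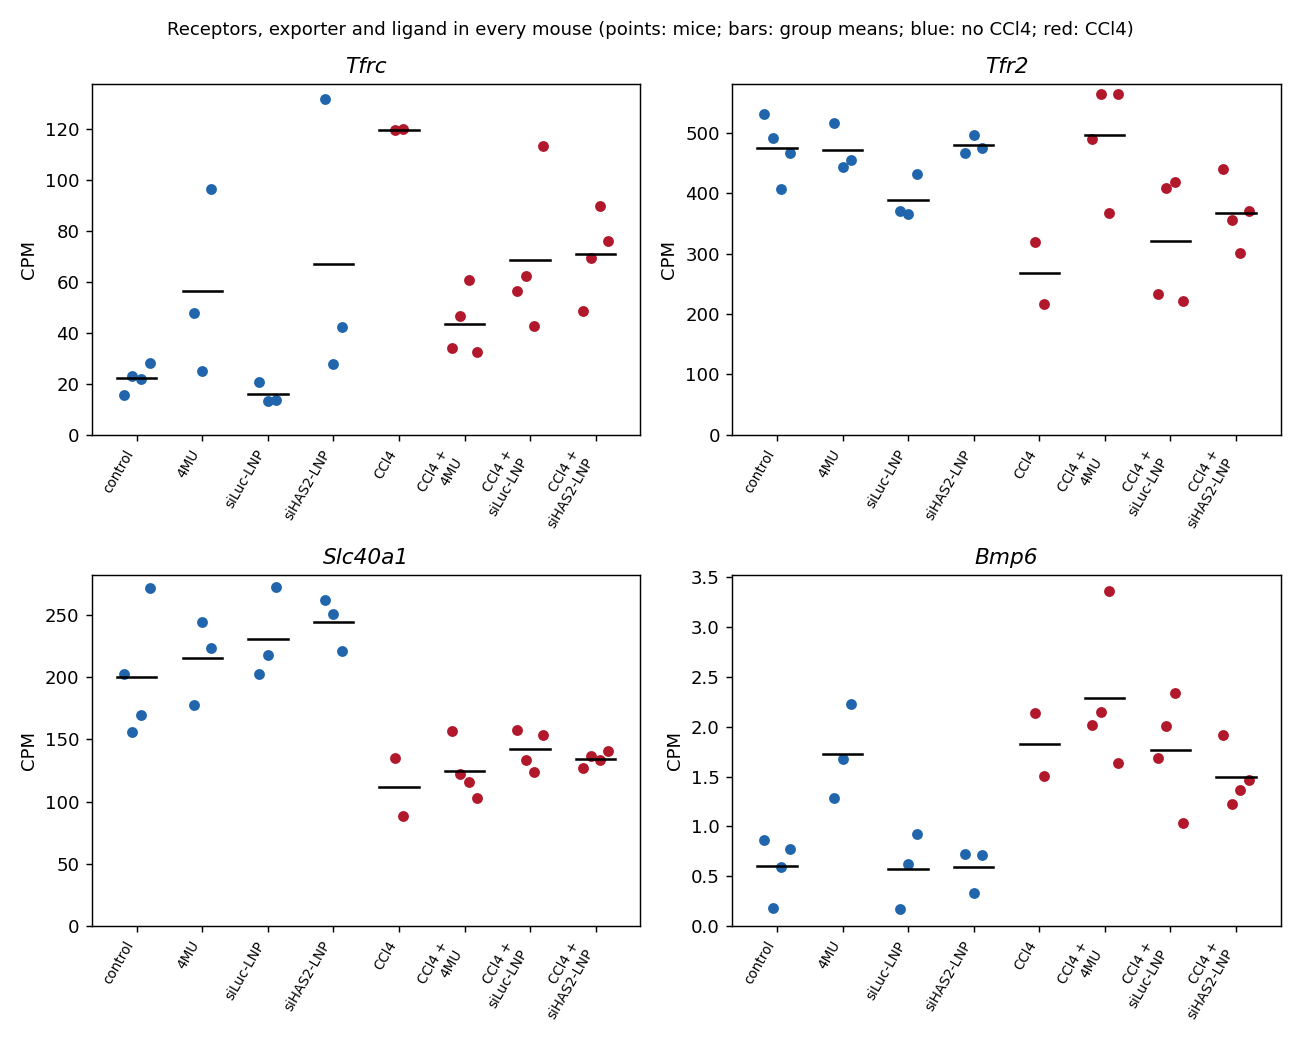
Tfrc, Tfr2, Slc40a1 and Bmp6 in each of the 27 mice, in CPM on linear axes that start at 0; points are mice, bars are group means, blue marks groups without CCl4 and red those with it. Slc40a1 falls to 158 CPM or less in all 14 CCl4 mice, and Tfrc is high in single mice of 4MU (96.4 CPM) and siHAS2-LNP (132 CPM) that had no CCl4.

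The 3 other genes with a match in the search for iron-responsive elements encode the exporter and the storage proteins. Each held 1 match, in the 5′ untranslated region, where such elements are known to act on translation. They are shown with the same capitals.
Slc40a1, chr1:45964626-45964652, minus strand: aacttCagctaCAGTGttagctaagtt
Fth1, chr19:9960097-9960123, plus strand: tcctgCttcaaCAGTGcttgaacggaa
Ftl1, chr7:45109204-45109230, minus strand: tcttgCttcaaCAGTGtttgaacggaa

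Slc40a1 (ENSMUSG00000025993, chr1:45947211-45965683), which encodes ferroportin, was the most even of the responders. It was 203, 156, 169 and 271 CPM in controls and 135 and 88.1 CPM in CCl4, 177, 245 and 223 CPM in 4MU and 157, 122, 116 and 103 CPM in CCl4 + 4MU. It was 202, 218 and 273 CPM in siLuc-LNP and 158, 133, 124 and 153 CPM in CCl4 + siLuc-LNP, and 262, 250.5 and 221 CPM in siHAS2-LNP and 127, 137, 134 and 141 CPM in CCl4 + siHAS2-LNP. No CCl4 mouse reached the lowest mouse of its own comparison group, and 12 of the 14 were below all 13 mice without CCl4. The log2 fold changes were -0.84 ± 0.218 (CCl4 against control, edgeR adjusted p = 0.0045), -0.79 ± 0.184 (4MU, adjusted p = 0.00297), -0.70 ± 0.184 (siLuc-LNP, adjusted p = 0.0069) and -0.86 ± 0.184 (siHAS2-LNP, adjusted p = 0.00261). The first was lost without CCl4 mouse 2 (-0.54, adjusted p = 0.178). Kupffer cells, the resident macrophages that recycle iron from red cells, are known for high ferroportin. Of their 7 markers 4 were lower and none higher over the 4 arms, a share close to the 51.9% called among all genes. Their summed level was 338 to 541 CPM in controls, 174 to 389 in 4MU, 274 to 498 in siLuc-LNP, 404 to 447 in siHAS2-LNP, 303 and 315 in CCl4, 248 to 459 in CCl4 + 4MU, 178 to 272 in CCl4 + siLuc-LNP and 130 to 171 in CCl4 + siHAS2-LNP, with 1 marker at 0 in 1 CCl4 + siHAS2-LNP mouse. By arm, 1 marker was higher and 1 lower in CCl4 against control, 3 were higher and 1 lower in the 4MU arm, 3 were lower in the siLuc-LNP arm and 5 in the siHAS2-LNP arm. Of all genes, 34.0%, 23.7%, 24.2% and 12.8% were called in these arms, in that order. The part of the Kupffer cell markers in the Slc40a1 result was not tested.

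The ferritin genes parted. Ftl1 (ENSMUSG00000050708, chr7:45107367-45109308), the light chain, ranged from 841 to 1685 CPM (median 1069) without CCl4 and from 580 to 1052 CPM (median 853) with it, and 7 of the 14 CCl4 mice were below all others (-0.47 ± 0.122 over 4 arms, edgeR adjusted p = 0.00233). It passed in no single arm, where the log2 differences ran from -0.60 to -0.40. Fth1 (ENSMUSG00000024661, chr19:9957911-9962462), the heavy chain that oxidises iron for storage, ranged from 1321 to 2102 CPM without CCl4 and from 1372 to 2557 CPM with it. The ratio of Fth1 to Ftl1 per exon base was 0.381 to 0.686 in mice without CCl4 and 0.564 to 1.15 in mice with it, so the ranges overlapped, and it was not tested. Of the 85-base stretches of the main transcript, 82.3% for Ftl1 also occurred in transcripts of 12 other genes, Ftl1-ps1 holding the most, and reads with several alignments were not counted. For Fth1 the share was 32.8%, of which 254 of 277 stretches lay in Gm36913, a gene that overlaps Fth1 on the opposite strand, and 23 in the copy Fth1-ps. Both levels are uncertain for these reasons.

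Trf (ENSMUSG00000032554, chr9:103081200-103107814), the plasma iron carrier made by hepatocytes, had the highest level of the 10 genes per exon base, 3900 to 7049 CPM per kilobase. It was 22940 to 30036 CPM without CCl4 (median 24839) and 22201 to 40133 CPM with it (median 35260). Of the 14 CCl4 mice, 12 were above all others, and CCl4 mouse 2 at 23494 CPM and CCl4 + siHAS2-LNP mouse 3 at 22201 CPM were not. The log2 difference over 4 arms was 0.39 ± 0.0947 (edgeR adjusted p = 0.00135). Among single arms only the 4MU arm passed (0.65 ± 0.186, adjusted p = 0.0129), and it did not without 4MU mouse 3 (0.64, adjusted p = 0.0518) or without the low-count filter (0.67, adjusted p = 0.133).

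Of 10 further genes of iron uptake and ferrireduction, 9 were tested and 7 were higher with CCl4 over 4 arms and none lower, where 3711 of all 14114 genes were higher and 3608 lower (51.9% called), with a median log2 difference of 0.64 against -0.02 for all genes. Lcn2, which encodes the siderophore-binding protein lipocalin 2, rose by 1.28 ± 0.243 (edgeR adjusted p = 0.000112), and the ferrireductase genes Steap3 and Steap4 rose by 0.87 ± 0.101 (adjusted p = 1.12e-07) and 0.71 ± 0.139 (adjusted p = 0.00017). Steap3 also stood at 46.4 to 50.2 CPM in siHAS2-LNP without CCl4, against 23.4 to 27.8 CPM in controls. Of 6 genes of iron-responsive regulation and ferritin turnover, none was higher and 3 were lower, a share close to that of all genes called. They were Fbxl5, the iron-sensing subunit that marks IRP2 for degradation, at -0.38 ± 0.0718 (adjusted p = 0.000105), Ireb2, which encodes IRP2 itself, at -0.35 ± 0.103 (adjusted p = 0.00601), and the iron chaperone Pcbp2 at -0.30 ± 0.109 (adjusted p = 0.0237). Of 13 genes of haem and haemoglobin handling, 2 were higher and 2 lower (median 0.04), a smaller share than that of all genes. Cd163, the haemoglobin scavenger receptor of macrophages, fell by 1.12 ± 0.214 (adjusted p = 0.000113), Blvrb, a biliverdin reductase, fell by 0.97 ± 0.14 (adjusted p = 2.95e-06), and Lrp1, a receptor for haem-bound haemopexin, rose by 0.37 ± 0.135 (adjusted p = 0.0262).

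Cd163 fell with either nanoparticle, with or without CCl4. It was 7.73 to 19.9 CPM in controls, 0.439 to 1.14 CPM in siLuc-LNP and 0.897 to 1.70 CPM in siHAS2-LNP, a log2 difference from control of -4.21 ± 0.428 (adjusted p = 6.88e-06) and -3.53 ± 0.401 (adjusted p = 5.97e-05). In CCl4 mice it was 4.19 and 9.04 CPM without particles, 0.173 to 0.617 CPM with siLuc-LNP and 0.241 to 0.587 CPM with siHAS2-LNP (-4.20 ± 0.441, adjusted p = 6.48e-06, and -3.98 ± 0.448, adjusted p = 1.72e-05). The controls serve both of the first comparisons, and the 2 CCl4 mice both of the last. Slc40a1 in the same mice had log2 differences of 0.21 ± 0.185 and 0.29 ± 0.184 from control (adjusted p = 0.943 and 0.929).

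Among mice given CCl4, those also given 4MU held more Hamp2 and Tfr2 and less Tfrc than mice given CCl4 alone, and 3 of the 10 genes passed in a comparison that called 18.3% of all genes. Hamp2 was higher by 3.64 ± 0.91 (edgeR adjusted p = 0.00855), Tfr2 by 0.89 ± 0.244 (adjusted p = 0.0141), and Tfrc was lower, at -1.46 ± 0.463 (adjusted p = 0.0301). No mouse overlapped for these genes, nor for Hamp, which was 100 to 172 CPM against 34.0 and 54.4 CPM but did not pass (1.68 ± 0.747, adjusted p = 0.114). Hfe did not overlap either and did not pass (0.27 ± 0.189, adjusted p = 0.318). How many of all genes failed to overlap between groups this small was not counted. All 3 calls were lost without CCl4 mouse 2, which left 1 CCl4 mouse, at 2.86 for Hamp2 (adjusted p = 0.175), 0.61 for Tfr2 (adjusted p = 0.275) and -1.49 for Tfrc (adjusted p = 0.166). The Tfrc call was also lost without CCl4 mouse 1 or CCl4 + 4MU mouse 1 or 4, at -1.48, -1.36 and -1.35, and under limma-voom. When just these groups were fitted, Tfr2 did not pass (0.88, adjusted p = 0.0509) and Hamp did (1.67, adjusted p = 0.0154). With siLuc-LNP, 0 of the 10 genes passed (0.248% of all genes), with 2 at an unadjusted p under 0.05 (2001 of all 14114 genes), 1 passing under DESeq2 and 0 under limma-voom. The Hamp2 and Hamp differences there were 2.94 ± 0.879 and 1.80 ± 0.752 (adjusted p = 0.12 and 0.269). With siHAS2-LNP, 1 passed (14.4% of all genes), Hamp2, higher by 2.66 ± 0.868 (adjusted p = 0.0408), and this call too was lost without CCl4 mouse 2 (1.90) and without CCl4 + siHAS2-LNP mouse 1 (1.91) or mouse 4 (2.73). These 3 comparisons share the 2 CCl4 mice. Between CCl4 + siHAS2-LNP and CCl4 + siLuc-LNP, 0 of the 10 passed (1.09% of all genes), 0 at an unadjusted p under 0.05 (2349 of all genes) and 0 under DESeq2 or limma-voom, and the Hamp difference was -0.38 ± 0.562 (adjusted p = 0.808).

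In mice without CCl4, none of the 10 genes passed the edgeR test for any treatment, in comparisons that called few genes of any kind. For 4MU against control 0 of 10 passed (0.00709% of all genes), and 0 under DESeq2 or limma-voom. At an unadjusted p under 0.05 there were 2 of the 10, and 966 of all 14114 genes. The Bmp6 difference was 1.48 ± 0.425, without overlap (adjusted p = 0.323), and the Tfrc difference 1.34 ± 0.426, with overlap (adjusted p = 0.39). For siLuc-LNP against control 0 passed (0.213%), 0 at an unadjusted p under 0.05 (960 of all genes) and 0 under the other tools, and the Hamp difference was 0.84 ± 0.6 (adjusted p = 0.899). For siHAS2-LNP against siLuc-LNP 0 passed (0.0425%), with 2 at an unadjusted p under 0.05 (1262 of all 14114 genes), Hamp and Tfrc. The log2 difference of Hamp was -3.23 ± 0.704 (36.9 to 154 CPM against 425 to 1195 CPM, adjusted p = 0.0755) and that of Tfrc 2.09 ± 0.477 (27.5 to 132 CPM against 13.3 to 20.7 CPM, adjusted p = 0.0829), and neither pair overlapped. DESeq2 called both, with adjusted p of 0.00926 and 0.0166, and so did limma-voom, with 0.00338 and 0.0151. Without the low-count filter both passed as well, at -3.20 (edgeR adjusted p = 2.3e-13) and 2.12 (adjusted p = 4.77e-10). There the adjusted p-values moved far more than the differences did, so this fit is not comparable with the main one. Hamp and Tfrc each passed in 3 of 12 alternatives, and in none that left out a mouse. The log2 difference ran from -3.76 to -2.84 for Hamp and from 1.14 to 2.46 for Tfrc over the alternatives. Hamp2 in the same mice was -0.81 ± 0.689 (adjusted p = 0.782). Tfr2 and Hfe did not overlap there either, at 0.30 ± 0.221 and 0.25 ± 0.177 (edgeR adjusted p = 0.742 and 0.732). How many of all genes failed to overlap in these comparisons of small groups was not counted. Against the controls, a comparison added after the values were seen, siHAS2-LNP gave 0 of 10 (0.0992%), with 2 at an unadjusted p under 0.05 (914 of all genes), 0 under DESeq2 and 1 under limma-voom. Hamp was -2.38 ± 0.658 there (adjusted p = 0.216), and no siHAS2-LNP mouse reached the lowest control.

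Whether a treatment's effect differed with and without CCl4 was tested as an interaction. For 4MU, 1 of the 10 genes passed (5.67% of all genes), Tfrc at -2.81 ± 0.629 (edgeR adjusted p = 0.0185). Tfrc stood at 25.1 to 96.4 CPM in 4MU and 15.6 to 28.3 CPM in controls, and at 32.6 to 60.5 CPM in CCl4 + 4MU and 119 and 120 CPM in CCl4. The call was lost without 4MU mouse 3 (-2.17, adjusted p = 0.0588) or without CCl4 mouse 2 (-2.83, adjusted p = 0.0945). Hamp2 had an interaction of 3.50 ± 1.08 (adjusted p = 0.0529), which passed under DESeq2 (adjusted p = 0.0211) and limma-voom (adjusted p = 0.0415) and in 6 of 19 alternatives in all. For siLuc-LNP 0 passed (0.00709%), with 1 at an unadjusted p under 0.05 (1411 of all 14114 genes), Hamp2 at 2.85 ± 1.06 (adjusted p = 0.371), and 0 under DESeq2 or limma-voom. For siHAS2-LNP against siLuc-LNP 0 passed (0.0354%), with 2 at an unadjusted p under 0.05 (1612 of all genes), Hamp at 2.84 ± 0.874 (adjusted p = 0.207) and Tfrc at -2.05 ± 0.611 (adjusted p = 0.202), and 0 under DESeq2 or limma-voom.

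Among mice given CCl4, Hamp was low where Tfrc was high. Over the 14 mice, Pearson's r of their log2 CPM was -0.693 (permutation p = 0.0064, adjusted p = 0.0823 over 90 relations) and Spearman's rho was -0.780 (permutation p = 0.0017, adjusted p = 0.0382), and r was -0.690 without the 2 mice farthest from the median of Hamp. Hamp and Hamp2 gave an r of 0.704 (adjusted p = 0.0808) and a rho of 0.785 (adjusted p = 0.0382), and Tfrc and Tfr2 an r of -0.797 (adjusted p = 0.0432) and a rho of -0.846 (adjusted p = 0.0279), each from the same permutation test. The 14 mice are of 4 treatments, so these relations hold treatment differences as well. Over the 13 mice without CCl4, Hamp and Tfrc gave an r of -0.491 (permutation, adjusted p = 0.283) and a rho of -0.341 (adjusted p = 0.5). There r was -0.0936 without the 2 mice farthest from the median of Hamp. Those were siHAS2-LNP mice 1 and 2 (36.9 and 94.7 CPM Hamp), so the relation there rested on 2 mice of 1 treatment group.

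**Figure D5:**
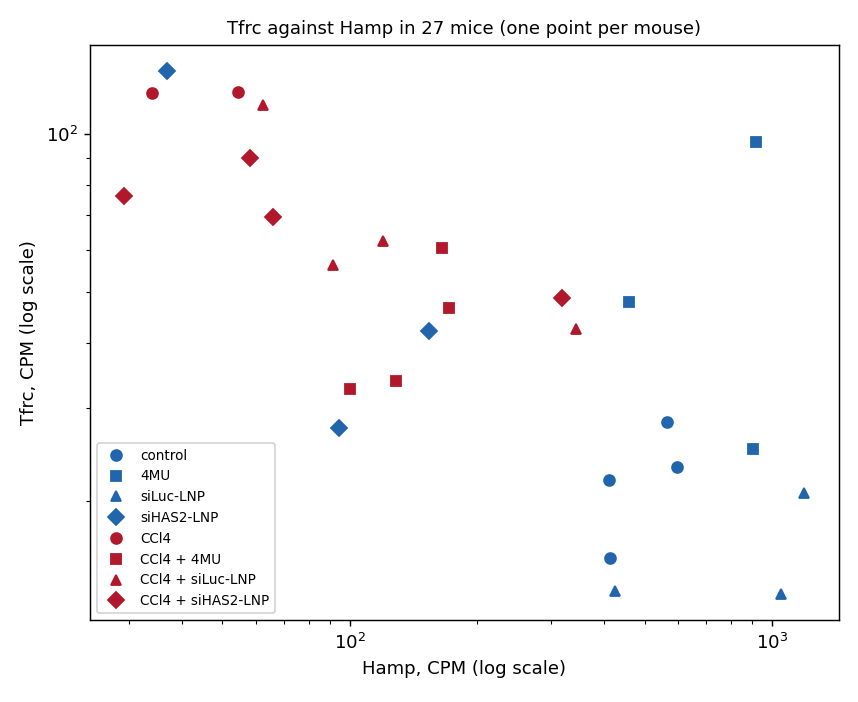
Tfrc against Hamp in CPM, both on log axes, 1 point per mouse; colour marks CCl4 and shape the treatment. Among the 14 mice given CCl4 the points run from high Hamp and low Tfrc to low Hamp and high Tfrc (r = -0.693), and siHAS2-LNP mouse 1, which had no CCl4, lies with the CCl4 mice at 36.9 CPM Hamp and 132 CPM Tfrc.

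The gene whose level followed Hamp most closely over the 27 libraries, among 12836 genes, was Usf2, with a Spearman correlation of 0.905, which lies 682 bases upstream of Hamp on chromosome 7. Atoh8 (0.857), Ddrgk1 (0.839), Camk2n1 (0.835) and Vipr1 (0.833) came next. Usf2 was 41.9 to 44.6 CPM in controls and 19.7 and 26.3 CPM in CCl4, a smaller span than that of Hamp, and its log2 difference over 4 arms was -0.52 ± 0.0903 (edgeR adjusted p = 4.13e-05). In siHAS2-LNP against siLuc-LNP it was -0.39 ± 0.186 (adjusted p = 0.552). The genes most like Tfrc were Etnk1 (0.859), Megf9 (0.850), Tmpo (0.846), Pdss1 (0.831) and Gins3 (0.808). These correlations are a description of libraries that share the CCl4 contrast. Within the 14 CCl4 mice alone Usf2 gave 0.842, Atoh8 0.851 and Etnk1 0.890. Within the 13 mice without CCl4 they gave 0.615, 0.802 and 0.725. Atoh8 was thus closer to Hamp than Usf2 in both sets of mice, and Usf2 led only over all 27 libraries.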

How the data were processed

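Libraries were poly(A)-selected, made with a directional kit and sequenced in paired ends of at least 85 bases. Per the paper's methods, the authors trimmed reads with Trimmomatic 0.39, aligned them to GRCm39 with HISAT2 and assigned them to Ensembl release 105 genes with featureCounts in R 3.4.2, without multimapping reads. The HISAT2 version and the strand setting are not given in the sources used here, so reads of genes that overlap on opposite strands (Gm36913 with Fth1, Gm44662 with Hamp and Hamp2, Gm10252 with Ftl1, Gm69542 with Slc40a1, Txndc5 with Bmp6, Gm69171 with Trf) may not be told apart. The deposited values are raw counts per gene in 27 libraries. Gene names came from a GRCm39 annotation, which matched 54749 of 55414 identifiers.

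From these counts, CPM (TMM-scaled) and tests were computed in R 4.3.3 with edgeR 4.0.16: 1 quasi-likelihood fit over all 8 groups, TMM factors, a filter at 10 counts on average per gene (14114 kept), Benjamini-Hochberg adjustment and a threshold of 0.05. The contrast over 4 arms weighted each arm equally. Standard errors are the log2 fold change over the square root of F. The fit was tested on simulated data with known changes. Relations between genes used 100000 permutations, two-sided. Alternatives were DESeq2 size factors, DESeq2 1.42.0, limma-voom 3.58.1 with sample weights, no low-count filter, only the compared groups, a replicate block, and each mouse left out. No 2 libraries of a group were duplicates (34 pairs, chi-square per degree of freedom at least 15.9).

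The 10 genes, the 5 further lists and the markers were chosen with earlier results of these data known. Named were all 10 genes, up to 3 genes a list with the largest called change over 4 arms, and the 5 genes most like Hamp and Tfrc by Spearman correlation. Inhbb and Cd163 in other comparisons, Steap3 in siHAS2-LNP and the comparison of siHAS2-LNP with control were chosen after the values were seen. Iron-responsive elements came from GENCODE transcripts on the GRCm39 sequence. Promoter sequences and erythroid markers are not reported here. The labels give 1 library per animal.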

Additional observations from a re-analysis of the deposited data

Results flagged for a closer look

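Single mice stood apart from their group in 4 cases, among 40 groups of 4 examined, in which chance alone flags about 5%. Hamp in CCl4 + siHAS2-LNP mouse 1 was 318.9 CPM, against 29.2 to 65.9 CPM in the other 3 mice. Hamp2 in CCl4 + 4MU mouse 4 was 18.7 CPM, against 69.2 to 77.9 CPM. Trf in CCl4 + siHAS2-LNP mouse 3 was 22201 CPM, against 33858 to 36211 CPM. Fth1 in control mouse 1 was 1639 CPM, against 1685 to 1690 CPM, a small gap in a group that was otherwise very even.

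The effect of 4MU on Tfrc differed between mice with and without CCl4, with an interaction of -2.81 on the log2 scale (edgeR adjusted p = 0.0185). It was not past the threshold without 4MU mouse 3 (-2.17) or without CCl4 mouse 2 (-2.83).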

How the results depend on the processing

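A part of the fold changes was followed under each alternative, all 10 genes over the 4 arms and selected genes in the other comparisons. Of these recomputed values, 855 kept their direction and their side of the threshold, 22 lost a call, 32 gained one and 9 turned. Calls gained by genes outside this selection are not in these counts. Over the 4 arms, Hamp, Hamp2, Tfrc, Trf, Ftl1, Slc40a1 and Bmp6 passed in all 33 alternatives, Tfr2 in 32, and Fth1 and Hfe in none. The turned values were all of differences that passed in neither fit. For Tfrc in CCl4 + 4MU against 4MU, limma-voom gave 0.024, and leaving out 1 mouse gave -0.73 to 0.25. For CCl4 + siHAS2-LNP against siHAS2-LNP, limma-voom gave -0.32 for Hamp, and leaving out 1 mouse gave -0.89 to 0.85 for Hamp (-0.07 without siHAS2-LNP mouse 1) and -0.30 to 1.03 for Tfrc (-0.17 without siHAS2-LNP mouse 3 and -0.06 without CCl4 + siHAS2-LNP mouse 3). For Hamp in CCl4 + siHAS2-LNP against CCl4 + siLuc-LNP it gave -1.59 to 0.34.

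The larger moves in the number of the 10 genes called were as follows, and the cause was not tested. Smaller moves are not listed, such as Bmp6 passing under DESeq2 in CCl4 + siHAS2-LNP against siHAS2-LNP. The shares of all genes given above are from the main fit, so the counts under alternatives have no such share beside them. In CCl4 + siHAS2-LNP against siHAS2-LNP the number called was 2, but 5 under limma-voom and 4 with only the compared groups. In CCl4 + siLuc-LNP against CCl4 it was 0, but 1 under DESeq2 and 2 without the low-count filter. In CCl4 + siHAS2-LNP against CCl4 it was 1, but 0 under limma-voom, 3 without the filter and 2 when just those groups were fitted. In siHAS2-LNP against siLuc-LNP it was 0, but 2 under DESeq2, limma-voom or no filter. In the interaction of 4MU and CCl4 it was 1, but 3 under DESeq2 and 2 under limma-voom, no filter or only the compared groups. Without the filter it was also 1 in place of 0 for 4MU against control and for the siLuc-LNP interaction, and 2 in place of 0 for the siHAS2-LNP interaction and for siHAS2-LNP against control, the last 1 under limma-voom or with only the compared groups. Leaving out 1 mouse gave 0 to 3 in CCl4 + 4MU against CCl4 (0 without CCl4 mouse 2), 0 to 1 in CCl4 + siLuc-LNP against CCl4 (1 without CCl4 + siLuc-LNP mouse 4), 0 to 1 in CCl4 + siHAS2-LNP against CCl4, and 0 to 3 in the 4MU interaction (0 without 4MU mouse 3 or CCl4 mouse 2, 3 without CCl4 mouse 1). With 1 CCl4 mouse left, that mouse is assumed to vary like the other groups. Without the filter, adjusted p-values moved far in both directions at nearly unchanged log2 differences, so those calls are not comparable with the main fit.

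The mouse numbers were taken to share nothing but a number, since in none of 28 pairs of groups did the deviations of all same-numbered mice correlate at over 0.1 (r from -0.347 to 0.361). With the replicate block, 2 of the 10 genes passed in the interaction of 4MU and CCl4 in place of 1, Hamp2 at 3.95 (adjusted p = 0.0478) being added. Bmp6 passed in CCl4 + siHAS2-LNP against siHAS2-LNP (1.41, adjusted p = 0.0405). Among the fold changes selected for this check, no other call changed.

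Depth limits Bmp6 most, with as few as 3 counts in a library.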
